A study of Homo sapiens with 8 samples.

Results

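The imprinted cluster at the left end of chromosome 11 was described here in HT and SUDHL6, 2 established lines derived from diffuse large B cell lymphoma and kept in culture without any treatment. Its members were all islands of enrichment that touched hg19 chr11:1950000-2950000, a window that holds H19, IGF2, KCNQ1 and CDKN1C. An island is a stretch of the genome that the authors' caller marked as enriched in 1 ChIP-seq library. They numbered 94 of the 58757 islands in the 6 lists, which came from 3 antibodies in each line, against trimethylated lysine 27 of histone H3 (H3K27me3), EZH2 and trimethylated lysine 4 of histone H3 (H3K4me3). Each line and antibody had 1 library, so no test between the lines was possible and every value below is a description. The window was chosen by measured values, namely a wide H3K27me3 island called in SUDHL6, not in HT, and covered by EZH2. The H3K27me3 and EZH2 values of SUDHL6 at H19 therefore carry no independent weight. Neighbouring islands are not independent of that island, so the same limit holds for these values across the window. The labels name no genotype for either line and no sequencing depth.

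Imprinted genes are expressed mainly from the copy inherited from 1 parent. In this cluster H19, a non-coding RNA, is known to be expressed from the maternal copy, and IGF2, a growth factor gene, from the paternal copy. CDKN1C encodes the cyclin-dependent kinase inhibitor p57, a maternally expressed brake on the cell cycle. KCNQ1 encodes a potassium channel, and the non-coding RNA KCNQ1OT1 starts inside it on the opposite strand and is known to silence neighbouring genes of the paternal copy. EZH2 is the enzyme of the Polycomb repressive complex that places methyl groups on lysine 27 of histone H3, a mark of silent chromatin, whereas H3K4me3 is typical of promoters in use. Island lists do not separate the parental copies.

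H19 is the gene under the island for which the window was chosen, so a start that RefSeq lists for it and its microRNA are printed. In RefSeq on GRCh38.p14, 1 of the 4 genes had a promoter entry, that of H19, on the minus strand at chr11:2001217-2001516. It runs from 250 bases before to 50 after the start and is given 5′ to 3′ with each CG pair in capitals, since Polycomb and H3K4me3 are both known to favour DNA rich in this pair.

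H19 promoter: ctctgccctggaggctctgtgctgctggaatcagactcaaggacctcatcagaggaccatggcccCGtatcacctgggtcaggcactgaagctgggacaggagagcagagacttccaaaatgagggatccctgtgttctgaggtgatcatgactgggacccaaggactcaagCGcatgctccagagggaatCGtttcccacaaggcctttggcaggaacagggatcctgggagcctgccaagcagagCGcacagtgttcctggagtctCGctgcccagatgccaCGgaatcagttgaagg

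These 300 bases hold 6 CG pairs, a motif that reads the same on both strands. At least 1 CG pair was present in 96.0% of the 35116 RefSeq promoters of the same length, whose median was 14, and 36.8% held as few or fewer. H19 is also the host of the microRNA miR-675, shown 5′ to 3′ with its seed (bases 2 to 8) in capitals. RNA was not measured, so nothing is known here of its expression. On GRCh38 the 5p form of miR-675 lies at 1996800 to 1996822. The promoter above is farther from it than the 2.66 kb length of the H19 interval used for the islands. That promoter therefore lies outside the interval, and its hg19 position was not used.

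hsa-miR-675-5p: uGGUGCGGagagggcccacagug
hsa-miR-675-3p: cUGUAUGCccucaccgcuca

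H3K27me3 covered 495 kb of the window in SUDHL6 and 47.2 kb in HT. That was 49.5% and 4.72% of the window, from 48 and 13 islands. EZH2 covered 230 kb in 20 islands in SUDHL6 and 5.25 kb in 1 island in HT. H3K4me3 did not show this imbalance, with 6 islands in each line over 16.2 kb in SUDHL6 and 13.2 kb in HT. The whole lists were far closer in length, at 51.3 Mb of H3K27me3 in SUDHL6 and 54.4 Mb in HT and at 8.77 and 11 Mb of EZH2. The window was chosen for H3K27me3 with EZH2 in SUDHL6, so nothing is read from this contrast.

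**Figure D1:**
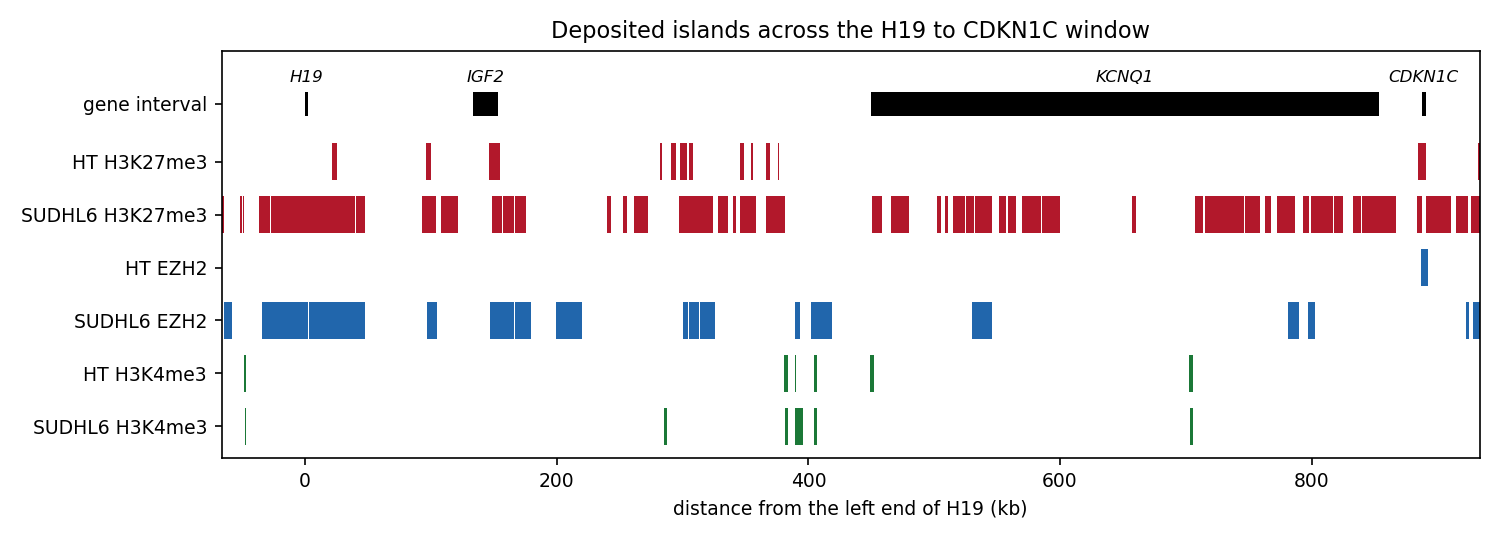
Islands of the 6 libraries across the window, 1 row per library, with the intervals of the 4 genes in black and the distance from the left end of H19 in kb on the x axis. SUDHL6 H3K27me3 (48 islands) is spread across the window, with gaps of up to 68.4 kb. SUDHL6 EZH2 (20 islands) is densest around H19, and HT has 13 H3K27me3 islands and 1 EZH2 island.

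The SUDHL6 islands of the cluster were wide as well as many. The 48 H3K27me3 islands ran from 1.20 to 36.0 kb with a median of 8.40 kb, against a median of 3 kb over the SUDHL6 list. Islands of 10 kb or wider numbered 19 of 48, and they made up 4.61% of the whole list. HT had none of that width here, and its 13 islands ran from 1.20 to 8.85 kb with a median of 3.30 kb, against 2.55 kb over the HT list. The 20 EZH2 islands of SUDHL6 ran from 1.80 to 36.3 kb with a median of 10.6 kb, against 4.50 kb over that list. The score that the authors deposited with each island, taken per kb and used only within a list, had a median of 26.0 over the 48 SUDHL6 H3K27me3 islands and 20.2 over their list. In HT the medians were 21.3 and 20. The window was chosen for a wide SUDHL6 H3K27me3 island covered by EZH2, and neighbouring islands are not independent. Nothing is therefore read from the widths and scores of the SUDHL6 islands beside their lists.

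Most SUDHL6 islands of the cluster had no partner in HT, and most HT H3K27me3 islands had one in SUDHL6. An HT island of the same mark was missing for 40 of the 48 SUDHL6 H3K27me3 islands, beside 72.2% of the whole SUDHL6 list. The window was chosen with this contrast in view and neighbouring islands are not independent, so nothing is read from the difference. In HT, 2 of 13 H3K27me3 islands lacked a SUDHL6 partner, beside 78.8% of the HT list. Both lay between IGF2 and KCNQ1, at 2298151 to 2300250 and 2307151 to 2310900. SUDHL6 H3K27me3 covered 76.2% of the bases that HT H3K27me3 covered in the window. It also covered 49.5% of all bases of the window, which was chosen for a wide island of this mark in SUDHL6. Nothing is therefore read from the 76.2% or from the 2 of 13.

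H19 lay wholly inside H3K27me3 in SUDHL6 and under no island of any antibody in HT. The SUDHL6 island ran from 1989451 to 2025450, 27 kb to the left of H19 (2016406 to 2019065) and 6.39 kb to its right, the side on which the minus-strand gene starts. It was 36.0 kb wide with a score of 1290, the highest 0.0228% of its list. The SUDHL6 EZH2 island over H19 ran from 1982251 to 2018550 and was 36.3 kb wide with a score of 723, within the highest 0.133% of its list. It covered 80.6% of H19 and ended inside the gene, and the next EZH2 island began at 2019301, so the 0.750 kb without EZH2 held the right end of the gene. The HT island nearest to H19 was one of H3K27me3 at 2037601 to 2041500, 18.5 kb away. The nearest HT EZH2 island was 140 kb away, outside the window.

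The islands over H19 were part of a longer block that extended to both sides of the gene. In SUDHL6, 4 H3K27me3 islands followed each other from 1979401 to 2063850 (84.5 kb) and 4 EZH2 islands from 1982251 to 2063850 (81.6 kb), each set broken only by gaps of 600 to 750 bp. Right of the H19 islands, the widest of the block were an H3K27me3 island at 2026201 to 2056350 (30.15 kb) and an EZH2 island at 2040451 to 2063850 (23.4 kb). The smallest gap in any list was 600 bp. With islands within 5 kb joined, the EZH2 block was the widest of 1391 in its list and the H3K27me3 block was rank 16 of 9177. HT had a single island in this block, the 3.90 kb of H3K27me3 right of H19, of which SUDHL6 EZH2 covered 84.6%. No H3K4me3 island of either line lay in it. The nearest were at 1968001 to 1969800 in HT and 1968601 to 1969650 in SUDHL6.

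IGF2 carried an H3K27me3 island in both lines. The interval used for it, 2150000 to 2170000, is approximate. HT H3K27me3 lay from 2162551 to 2171400 (8.85 kb, the widest HT island of the window) and SUDHL6 H3K27me3 from 2164951 to 2172750 (7.80 kb). They covered 37.2% and 25.2% of the interval, and the SUDHL6 island had 82.7% of its length in HT H3K27me3. EZH2 was called here in SUDHL6, from 2163601 to 2182650 (19.1 kb), and not in HT. Past the right end of the interval SUDHL6 went on with H3K27me3 at 2173501 to 2182650 and 2183251 to 2191650. EZH2 covered both of these fully, and HT had no island there. No H3K4me3 island of either line lay between H19 and IGF2 or over IGF2.

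Between H19 and IGF2, H3K27me3 covered 52.0% of 131 kb in SUDHL6 and 5.73% in HT. The HT islands there were those at 2037601 to 2041500 and 2112601 to 2116200 (3.6 kb). SUDHL6 H3K27me3 held both fully, the second within 2109301 to 2120400 (11.1 kb), and SUDHL6 EZH2 covered 79.2% of the second. The SUDHL6 island at 2124451 to 2138100 (13.65 kb) had no HT H3K27me3 and no EZH2.

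**Figure D2:**
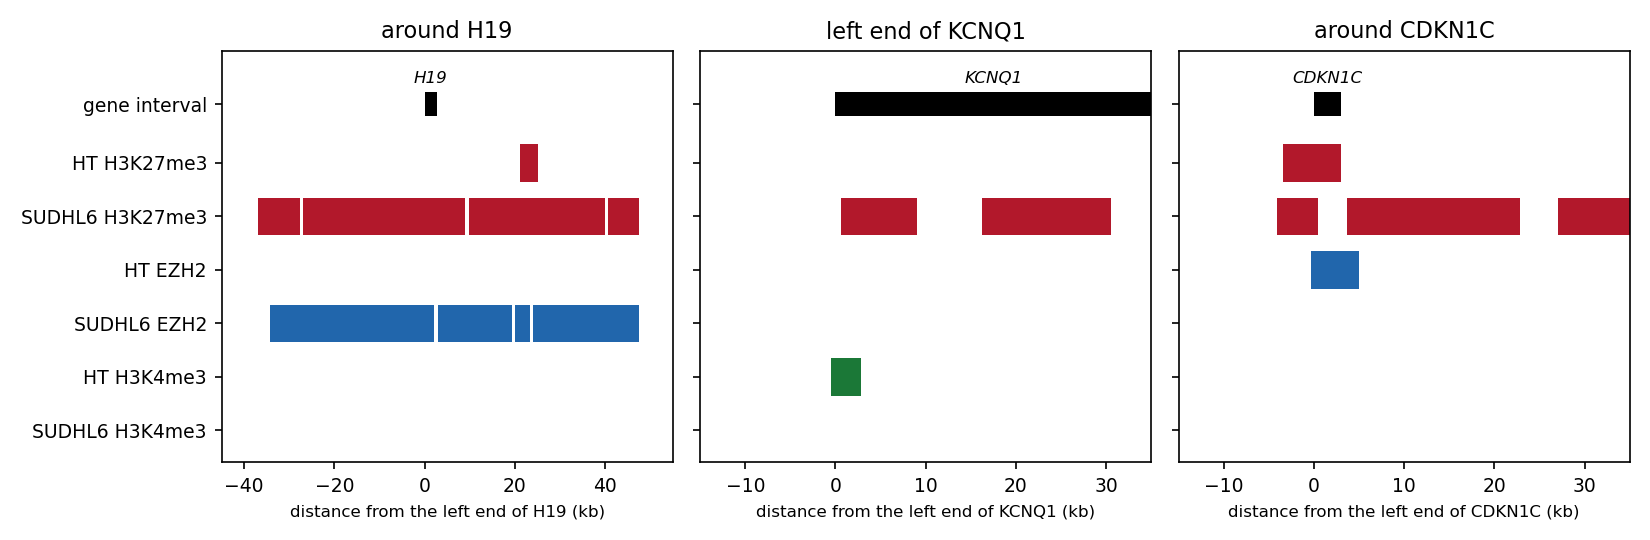
Islands of the 6 libraries around H19, at the left end of KCNQ1 and around CDKN1C, with the distance from each gene's left end in kb. H19 is under SUDHL6 H3K27me3 and EZH2 and no HT island, the left end of KCNQ1 has HT H3K4me3 and SUDHL6 H3K27me3, and CDKN1C is under HT H3K27me3 and EZH2 and largely in a gap of SUDHL6 H3K27me3.

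Over KCNQ1, H3K27me3 was called in SUDHL6 and not in HT. In SUDHL6, 22 islands covered 220 kb of its 404 kb (54.5%), and HT had no H3K27me3 and no EZH2 island over it. The gap in HT H3K27me3 that holds KCNQ1 ran from 2393101 to 2900550, or 507 kb. At the left end, where KCNQ1 is known to start, HT had H3K4me3 from 2465551 to 2468850 (3.30 kb, score 115). SUDHL6 had no H3K4me3 there and instead H3K27me3 from 2466601 to 2475000 (8.40 kb, score 232), which covered 68.2% of the HT H3K4me3 island. The widest SUDHL6 island over KCNQ1 lay at 2731801 to 2762850 (31.05 kb). It was also the third widest in SUDHL6 of the 9498 H3K27me3 islands without an HT partner, and EZH2 covered 0% of it. A further wide island, at 2856301 to 2883600 (27.3 kb), crossed the right end of the gene and likewise had no EZH2.

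Inside KCNQ1 both lines shared an H3K4me3 island in a stretch nearly bare of H3K27me3. It ran from 2718901 to 2721900 in HT (3 kb, score 64) and from 2719501 to 2721750 in SUDHL6 (2.25 kb, score 62). In SUDHL6, no H3K27me3 island of 5 kb or wider lay from 2616151 to 2724000. These 108 kb held 1 island of 2.70 kb, at 2673901 to 2676600, and no EZH2. H3K27me3 resumed 2.25 kb to the right of the H3K4me3 island. In RefSeq on GRCh38, KCNQ1OT1 lies within KCNQ1, but its hg19 position was not used here and the H3K4me3 island was not assigned to it.

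At CDKN1C, EZH2 was called in HT and not in SUDHL6, and H3K27me3 was called in both lines but covered more of the gene in HT. HT H3K27me3 ran from 2900551 to 2907000 (6.45 kb, score 198) and HT EZH2 from 2903701 to 2908950 (5.25 kb, score 77). Each covered 100% of the interval 2904000 to 2907000. SUDHL6 H3K27me3 covered 15.0% of it, with an island at 2899951 to 2904450 (4.50 kb) that stopped near its left end. The next SUDHL6 island began at 2907601 (19.2 kb), so a gap of 3.15 kb held the rest of CDKN1C. That gap closes where islands within 5 kb are joined, and SUDHL6 H3K27me3 then spans the whole interval. The nearest SUDHL6 EZH2 island was 32.1 kb away, and neither line had H3K4me3 within 102 kb.

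The HT EZH2 island at CDKN1C was the 1 EZH2 island of that line in the window. It overlapped HT H3K27me3, as did 48.9% of all HT EZH2 islands, and no H3K4me3, which 33.8% of them overlapped. It had no SUDHL6 EZH2 partner, which 88.5% of the HT list also lacked. The H3K27me3 island beneath it was the 1 of 13 HT islands with EZH2 (7.69%), close to the 7.77% of the HT list. Its score per kb was the highest of the 13, at 30.7. The island at 2948701 to 2952000, which had no HT EZH2, followed closely at 30.3. In width and score the EZH2 island was ordinary for its list, within the highest 22.4% by width and 23.6% by score.

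Right of CDKN1C, H3K27me3 covered 84.7% of the remaining 43.0 kb in SUDHL6 and 3.02% in HT. In RefSeq order CDKN1C is followed by SLC22A18, a transporter gene, PHLDA2, an imprinted growth regulator of the placenta, and NAP1L4, a histone chaperone gene. The HT island at 2948701 to 2952000 crosses the right edge of the window. SUDHL6 EZH2 covered it fully, and HT EZH2 did not touch it.

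Between IGF2 and KCNQ1 both lines had H3K27me3, and SUDHL6 had more. RefSeq places INS, TH, ASCL2, TSPAN32, CD81, TSSC4 and TRPM5 here, in this order, and their hg19 positions were not used. Of 296 kb, SUDHL6 H3K27me3 covered 34.9% in 13 islands and HT H3K27me3 8.28% in 9. The widest SUDHL6 island, at 2313751 to 2340450 (26.7 kb), enclosed the HT islands at 2314201 to 2319600 and 2321701 to 2324850, and EZH2 covered 83.7% of it. The islands at 2361901 to 2374500 (12.6 kb) and 2382451 to 2392650 (10.2 kb) had 36.9% and 35.3% of their length in HT H3K27me3, and neither had EZH2. The rightmost HT island of this group was narrow, at 2391901 to 2393100 (1.20 kb). EZH2 of SUDHL6 was also called at 2215501 to 2236800 (21.3 kb), where neither line had either histone mark.

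The H3K4me3 islands lay mostly at the same places in both lines. Of the 6 in each line, 5 had a partner. The HT list as a whole lacked a partner for 25.6% of its islands and the SUDHL6 list for 41.0%. With 6 islands in each line, nothing is read from the difference. The partners lay near 1968601 to 1969650, 2397901 to 2400450, 2405401 to 2412000, 2421151 to 2422950 and 2719501 to 2721750 in SUDHL6. The island without a partner was the one at the left end of KCNQ1 in HT and one at 2301751 to 2303700 (1.95 kb, score 35) in SUDHL6. The third of the shared islands was 6.60 kb wide in SUDHL6 and 0.450 kb in HT. The next, at 2421151 to 2423100 in HT, had nearly the same width in both lines (1.95 kb in HT and 1.80 kb in SUDHL6), and SUDHL6 EZH2 covered both fully.

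H3K4me3 and H3K27me3 of the same line hardly met. In HT they shared 0 bases in the window. In SUDHL6 they shared 0.300 kb, at the right end of the H3K27me3 island at 2393251 to 2398200. Across lines, SUDHL6 H3K27me3 lay over 26.1% of the bases of HT H3K4me3 in the window, against 1.27% over the whole lists. It covered 49.5% of the window itself, so the 26.1% was below its share of all bases here. The overlap of 3.45 kb came from 3 HT islands, at 1968001 to 1969800 (8.33% of its length), 2397151 to 2399850 (38.9%) and 2465551 to 2468850 (68.2%). The last of these gave 2.25 kb.

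**Figure D3:**
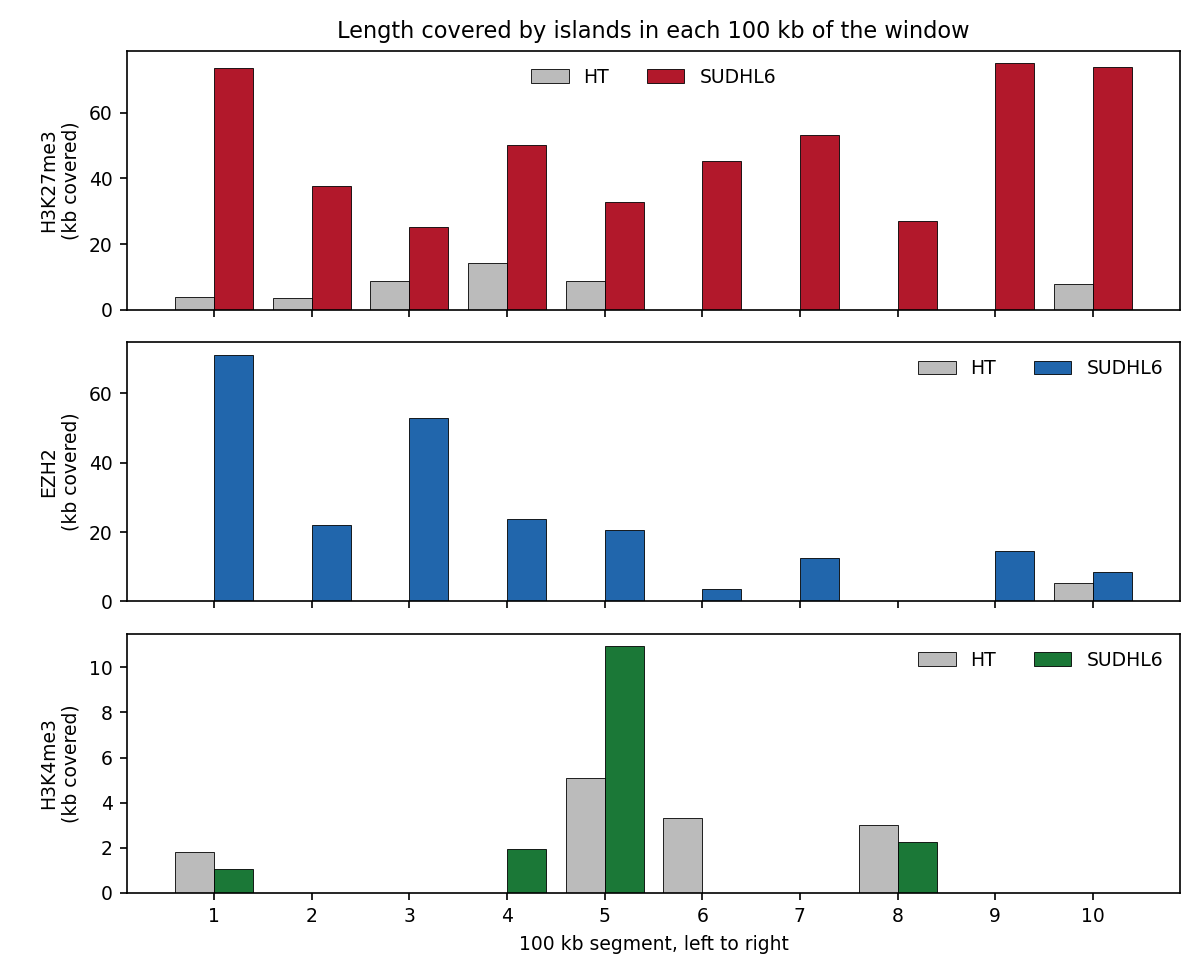
Length covered by islands of each antibody in the 10 segments of 100 kb, left to right, HT in grey and SUDHL6 in colour, in kb on axes that start at 0. SUDHL6 H3K27me3 is the higher bar in each segment (25.4 to 75.1 kb), whereas SUDHL6 EZH2 is highest in the first (71.2 kb) and 0 in the eighth.

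EZH2 of SUDHL6 was gathered left of KCNQ1, whereas its H3K27me3 was spread across the window, with gaps of up to 68.4 kb. Left of KCNQ1, H3K27me3 covered 220 kb and EZH2 191 kb, and EZH2 lay over 60% of the H3K27me3 bases. Over KCNQ1, H3K27me3 also covered 220 kb but EZH2 30.6 kb, and EZH2 lay over 11.7% of the H3K27me3. Right of KCNQ1 the share was 13.9%, and over the whole SUDHL6 lists it was 9.47%. The part left of KCNQ1 holds the H19 island, for which the window was chosen and which EZH2 covered to 97.9%. Neighbouring islands of its block are not independent of it, so nothing is read from the contrast of 60% with the other shares. The 3 EZH2 islands over KCNQ1 lay at 2546551 to 2562600 (16.05 kb), 2797351 to 2806500 (9.15 kb) and 2813551 to 2818950 (5.40 kb).

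Counted by island, 16 of the 48 SUDHL6 H3K27me3 islands held EZH2, beside 9.45% of the list. The window was chosen for an H3K27me3 island covered by EZH2, and neighbouring islands of a block are not independent, so these counts are a description. Those with EZH2 had a median width of 9.68 kb and those without of 6.68 kb, with overlapping ranges of 4.95 to 36.0 and 1.20 to 31.1 kb. Their median scores per kb were 27.5 and 25.1. Of the 20 SUDHL6 EZH2 islands, 15 lay over H3K27me3, against 65.5% of the list, and 20 had no HT EZH2 partner, against 80.6%. The 5 without H3K27me3 were those at 1952251 to 1954050, 1954651 to 1958400, 2215501 to 2236800, 2405851 to 2409750 and 2418301 to 2435100. The last pair overlapped SUDHL6 H3K4me3, so 2 of 20 EZH2 islands met H3K4me3, against 16.5% of the list. EZH2 of SUDHL6 also lay over 6 of the 13 HT H3K27me3 islands, against 4.40% of the HT list. SUDHL6 EZH2 covered 23.0% of this window, which was chosen for an island covered by it, so nothing is read from that count.

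The cluster held more H3K27me3 and more EZH2 in SUDHL6 than any other 1 Mb stretch compared on the autosomes. Among 2571 windows of 1 Mb cut in step with it, it ranked 1 for both, with medians of 1.35 kb for H3K27me3 and 0 kb for EZH2. Taken instead in steps of 50 kb, 0 of 57563 stretches that did not touch the window exceeded it. The highest held 460 kb of H3K27me3 (chromosome 9, 137.1 to 138.1 Mb) and 155 kb of EZH2 (chromosome 9, 139.15 to 140.15 Mb). In HT the window ranked 359 for H3K27me3 and 674 for EZH2. For H3K4me3 it ranked 648 in HT and 606 in SUDHL6. These ranks describe a window chosen for its H3K27me3 and EZH2 in SUDHL6.

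**Figure D4:**
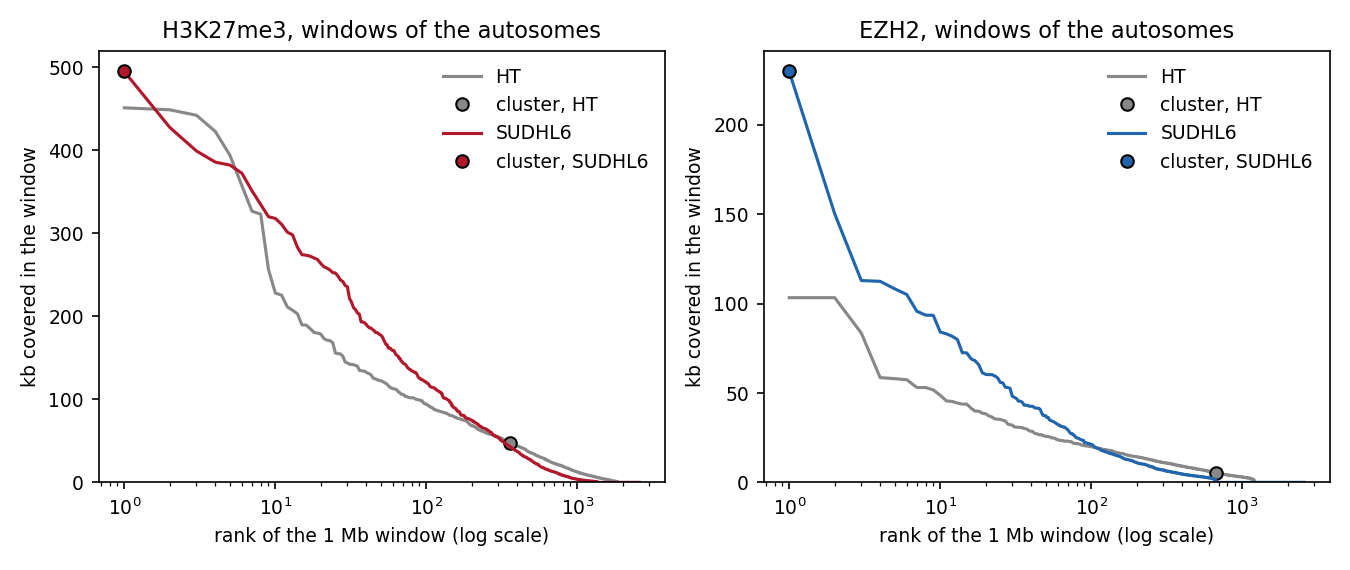
Length covered in each 1 Mb window of the autosomes, in kb, against its rank on a log scale, for H3K27me3 and EZH2, with HT in grey and SUDHL6 in colour and the cluster as a circle. The cluster is rank 1 in SUDHL6 for both (495 and 230 kb) and rank 359 and 674 in HT (47.2 and 5.25 kb).

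The excess of SUDHL6 H3K27me3 did not stop at the window. In the 1 Mb to the left it covered 386 kb, against 44.4 kb in HT, and in the 1 Mb to the right 154 kb, against 28.9 kb. EZH2 of SUDHL6 covered 72.6 kb and 23.9 kb in these flanks and 230 kb in the window. The window was chosen for an island covered by EZH2 and the flanks were not, so nothing is read from this contrast. The leftmost SUDHL6 H3K27me3 member, at 1933651 to 1951950 (18.3 kb), crossed the left edge and lay mostly outside, and the next island to the left ended 20.7 kb from the edge. The last member crossed the right edge, ending at 2950350, and the next island began at 2950951. The 142 windows that lay in the first 10 Mb of the autosomes had a median of 13.3 kb for SUDHL6 H3K27me3, against 1.35 kb over all 2571. The cluster's rank of 1 among these 142 follows from its rank of 1 among all.

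Among the 5 widest H3K27me3 islands of SUDHL6 without an HT partner, 1 besides the H19 island was covered by EZH2. The H19 island was the widest of the 9498, with EZH2 over 97.9% and H3K4me3 over 0% of it. The next were at 21299101 to 21331350 of chromosome 17 (32.25 kb), the KCNQ1 island given above, 50613751 to 50643600 of chromosome 19 (29.85 kb) and 1240201 to 1267800 of chromosome 11 (27.6 kb). EZH2 covered 0%, 0%, 100% and 0% of them. The chromosome 19 island, the one with EZH2, was also covered to 100% by SUDHL6 H3K4me3, which covered 0% of each of the others. Of the 100 widest, 10 lay in the window, beside 40 of all 9498. The window was chosen for the H19 island and neighbouring islands are not independent, so nothing is read from this count.

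With 1 library per line and antibody, a missing island does not show that a mark is absent, and the line, the library and the calling cannot be told apart.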

How the data were processed

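ChIP-seq of H3K27me3, EZH2 and H3K4me3 in HT and SUDHL6 was used as 6 deposited island lists, 1 per library. The 2 input samples were not used here. The submitters' processing notes name SICER as a tool and hg19 as the build, and the names of the lists hold W150, G450 and FDR1E-7, which fits a 150 bp window and a 450 bp gap. The score per island is the authors' deposited value. The sources used here do not say what it counts, nor name the aligner, filters, control or depth. The file names carry different normalization words for H3K27me3 and for the other antibodies, so scores were compared only within a list.

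Positions are hg19, counted from 1. Overlap means at least 1 bp. Gene intervals came with the definition of the window, and RefSeq on GRCh38 gave only names, order and sequences (18 of 18 listed genes matched, SLC22A18 by an older symbol). Every island of the window was counted. The named genes and islands, and the lists, were chosen with earlier results of these data known. The rule named the 4 genes, the 5 widest islands of each list in the window and the 5 widest SUDHL6 H3K27me3 islands without HT H3K27me3. Other islands are given because they lie at a gene or are the exceptions to a count, and were chosen after their values were seen. No test was run. Overlap steps were checked on simulated islands. Python 3.11.15, scipy 1.17.1, numpy 2.4.6 and matplotlib 3.10.9 were used.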

Additional observations from a re-analysis of the deposited data

How the results depend on the processing

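Counts and covered lengths stayed within 1.5 times of the value given in 135 of 152 comparisons with an alternative setting. With islands within 5 kb joined, the SUDHL6 H3K27me3 islands of the window were 19, of which 13 had no HT partner and 8 held EZH2. SUDHL6 EZH2 islands were then 12, of which 12 had no HT partner and 8 lay over H3K27me3, and 1 HT H3K27me3 island had no SUDHL6 partner. Fewer islands follow from joining itself. With the window widened by 250 kb on both sides, HT had 22 H3K27me3 islands over 79.1 kb, 5 EZH2 islands over 19.7 kb and 20.7 kb of H3K4me3, and SUDHL6 had 11 H3K4me3 islands over 29.7 kb. The SUDHL6 H3K4me3 islands without a partner were 2 in the upper 50% of each list by score, among islands of at least 1 kb, and when 50% of an island had to be overlapped. Holding the lines to equal numbers of islands moved 0 of 28 values by more than 1.5 times. The 50 kb steps for the rank of the window were added after the data were seen. No paired analysis was possible because each line and antibody had 1 library, and for the same reason none could be left out. Depth is unknown, so how far it limits the calls is not known.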
